A study of Homo sapiens with 12 samples.

Results

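DNA replication and G1/S genes were followed through 12 RNA-seq libraries of HEK293T cells. The set holds 39 genes chosen by name for their part in licensing and firing replication origins, copying DNA, making its building blocks and passing from G1 into S phase. Each of the 39 symbols had exactly 1 row among the 41878 gene rows of the count table, and 38 of them passed the filter on low counts that left 18030 genes for testing. With edgeR fitted to all 12 libraries, none of these 38 genes was below 0.05 after adjustment in any comparison of serum or plasmid. The DESeq2 Wald test on the same libraries put 1 of them, MCM7, past it for starvation averaged over both plasmids (adjusted p = 0.033). That test called 1.81% of 15863 genes there. MCM7 and FEN1 were the 2 members whose 6 starved libraries all lay above their 6 fed libraries (5.26%). Fed and starved libraries did not overlap, in either direction, for 1.25% of all genes.

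HEK293T is a human embryonic kidney line that carries adenovirus E1 sequences and the SV40 large T antigen. Both E1A and large T bind the RB family of proteins, which otherwise hold E2F factors in check, so the line enters S phase with that brake weakened. All 12 cultures were transfected with 1 µg of plasmid by a lipid-based reagent. The plasmid was a control vector in 2 groups and TRPML3 in the other 2. TRPML3, encoded by MCOLN3, is a cation channel of endosomes, lysosomes and autophagosomes. In each plasmid group, 3 biological replicates stayed in 10% serum (vector fed, TRPML3 fed) and 3 were kept in 0% serum for 4 h (vector starved, TRPML3 starved), a treatment meant to induce autophagy. Polyadenylated RNA was sequenced from whole cultures. A transfected culture mixes cells that took up the plasmid with cells that did not, and it mixes all phases of the cell cycle. In such bulk samples, fewer cells in a phase and less RNA per cell cannot be told apart.

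Replication starts in G1, when the origin recognition complex, CDC6 and CDT1 load the MCM helicase onto origins. Cyclin-dependent kinases and further factors then turn the helicase on at S phase entry, and polymerases, the PCNA clamp and its RFC loader copy the DNA. Many of these genes are E2F targets: their messenger RNA builds up in late G1, after serum signals have raised cyclin D and RB has been phosphorylated.

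Library totals ran from 33101540 to 43700547 counts. Levels are given in CPM, the usual per-library scaling of counts, here on TMM-scaled totals, and values of 3 libraries stand in the order of replicates 1, 2 and 3. MCOLN3 lay between 9.31 and 18.4 CPM in the 6 vector libraries and between 4929 and 58223 CPM in the 6 TRPML3 libraries, so every library matched its plasmid label. Among the TRPML3 libraries MCOLN3 took 0.648, 0.505 and 3.70% of counts in fed replicates 1, 2 and 3 and 3.95, 5.52 and 1.57% in starved ones. Of 8 markers of this line, VIM, KRT8, KRT18, NEFL, NEFM and CDH2 each exceeded 30 CPM in every library, while the renal transcription factor genes PAX2 and LHX1 lay between 0.839 and 14.6 CPM. The leukocyte genes PTPRC, CD3E and LYZ stayed under 0.5 CPM and HBB had no counts, and COL1A1, a collagen gene, reached 20.6 CPM. These come from 8 markers of other cell types, which also held ALB, PECAM1 and EPCAM. Of the 8, 4 passed the filter on low counts, and COL1A1 alone had a mean of at least 10 CPM. Among those 4, ALB was higher in starved vector cells at an unadjusted p under 0.05 in edgeR (25%, beside 4.44% of all genes). Mitochondrial transcripts made up 1.05 to 5.70% of counts, lowest in replicate 2 and highest in replicate 3 of all 4 groups.

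Upstream sequence is shown because many members share short words there. Many of these genes are E2F targets, as said above, so shared E2F words are not separate from the choice of the set. RefSeq promoters (GRCh38.p14, 250 bases before to 50 bases after a start) were found for 34 of the 39 members, with 44 starts. The core E2F words TTTCCCGC, TTTCGCGC, TTTGCCGC and TTTGGCGC were searched on both strands. At least 1 of them lay in 21 of the 44 member promoters (47.7%), against 3.31% of all 35116 promoters of that length. The CCAAT box (CCAAT, both strands) lay in 63.6% of member promoters and 34.6% of all. The GC box (GGGCGG, both strands) lay in 79.5% and 45%. The CHR element of G2/M promoters (TTTGAA, both strands) lay in 4.55% and 15.2%. A GCGGGAAA word, the reverse complement of TTTCCCGC, can overlap GGGCGG on its left. These matches are a description of letters, not of binding, and some genes are counted through several starts. The promoters set beside those of the members were not matched to them by base content or expression. The 120 bases before the start are printed 5′ to 3′ on the gene's strand for 5 members, with E2F words and CCAAT boxes in capitals.

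MCM6 (chr2:135876444-135876563, minus strand): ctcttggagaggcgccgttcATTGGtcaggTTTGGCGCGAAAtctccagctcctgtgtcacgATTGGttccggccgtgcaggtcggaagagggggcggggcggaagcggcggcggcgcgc
PCNA (chr20:5126623-5126742, minus strand): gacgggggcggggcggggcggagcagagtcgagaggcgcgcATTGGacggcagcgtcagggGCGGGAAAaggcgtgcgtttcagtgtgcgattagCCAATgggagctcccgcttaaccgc
E2F1 (chr20:33686386-33686505, minus strand): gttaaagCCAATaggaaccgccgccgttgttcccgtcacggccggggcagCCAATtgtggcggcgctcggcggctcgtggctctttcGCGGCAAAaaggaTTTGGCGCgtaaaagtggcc
E2F2 (chr1:23531234-23531353, minus strand): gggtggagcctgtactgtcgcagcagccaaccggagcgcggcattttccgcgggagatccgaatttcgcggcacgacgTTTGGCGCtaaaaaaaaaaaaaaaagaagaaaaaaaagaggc
RFC5 (chr12:118016583-118016702, plus strand): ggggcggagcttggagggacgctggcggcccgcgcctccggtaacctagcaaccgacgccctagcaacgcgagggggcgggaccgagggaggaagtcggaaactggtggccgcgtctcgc

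MCM6 shows 2 overlapping E2F words on opposite strands beside a pair of CCAAT boxes, and E2F1, whose product binds such words, has 2 of its own. PCNA carries 1 E2F word between CCAAT boxes, and E2F2 carries 1 and no CCAAT box. RFC5 was printed as a member with neither in this stretch. In MCM7 a TTTCGCGC word lay at positions -9 to -2 and a GCGGGAAA word at -187 to -180 from its start at the 5′ end. Its other starts had none of the E2F words. FEN1, TK1 and ORC1 had none of the 4 E2F words in the windows searched.

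Levels of different genes were compared per kilobase of exon (GENCODE 29). The length merges all annotated exons of a gene, so it can exceed that of the transcripts made, and the ranking depends on it. PCNA was the highest member at 257 ± 47.2 CPM per kb, above 99.3% of the tested genes that have a length. MCM7 came next with 107 ± 20.7, followed by RRM1 with 94.3 ± 13.9 and FEN1 with 72.7 ± 11.1 CPM per kb. RRM2 (67.5 ± 6.29), UNG (66.8 ± 15.9) and MCM6 (66.6 ± 16.5) followed. From MCM7 down to MCM6 each gene's SD overlaps that of the gene next in this order, so the order of neighbours is not resolved. The lowest tested members were CCND1 with 3.00 ± 0.929, POLE2 with 3.82 ± 1.66 and PRIM1 with 4.18 ± 3.08 CPM per kb, and these 3 also differed by less than their spread. The 6 subunits of the MCM helicase, which act in equal numbers in the ring, ranged from 14.9 ± 2.84 CPM per kb for MCM5 to the value of MCM7. The merged exons were 7.34 kb for MCM5 and 4.39 kb for MCM7, which widens that range. Without the division by length, their means over 12 libraries were 109 and 469 CPM.

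**Figure D1:**
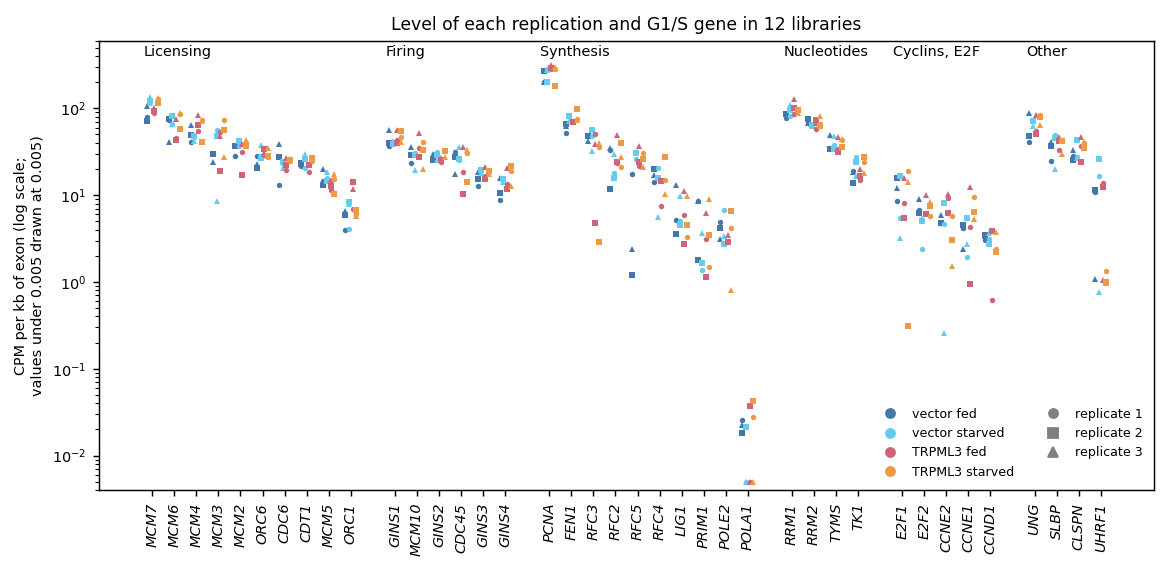
CPM per kb of exon on a log axis for the 39 members in each of 12 libraries, by role, with colours for groups and shapes for replicates. PCNA is highest; POLA1 is near 0 in every library, and UHRF1, RFC3, RFC5, E2F1 and CCNE2 each have libraries far below the rest.

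Starved and fed cells were compared to ask whether loss of serum for 4 h changed these genes. With the average of both plasmids (6 libraries against 6), edgeR's quasi-likelihood test put 0 of 38 members below 0.05 after adjustment, and 0% of the 18030 genes. At an unadjusted p under 0.05 there were 3 members, all higher in starved cells, MCM7, FEN1 and TK1. That is 7.89% of the members beside 9.45% of all genes, so their number is near the background. Starved and fed libraries did not overlap for 2 members (5.26%), against 1.25% of all genes. The members' median log2 fold change was 0.08, beside 0.01 over all genes, and 22 of 38 were above 0. By role, the median was 0.20 in the 10 licensing genes, 0.17 in the 6 firing genes, -0.03 in the 9 tested synthesis genes, 0.05 in the 4 nucleotide genes and -0.17 in the 5 cyclin and E2F genes.

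Within vector cells, starvation gave 4 members at an unadjusted p under 0.05 (10.5%, beside 4.44% of all genes), MCM7, RFC5 and FEN1 higher and E2F2 lower. Starved and fed replicates did not overlap for 5 members, beside 9.93% of all genes. Those were MCM7, RFC5 and FEN1 on the high side and RRM2 and E2F2 on the low side. At the adjusted threshold there were 0 members, and 0.00555% of all genes. Within TRPML3 cells 3 members reached an unadjusted p under 0.05 (7.89%, beside 5.71%), MCM7 higher and ORC1 and UHRF1 lower. The replicates did not overlap for 6 members, beside 11.2% of all genes, with CDT1, MCM7, GINS2 and FEN1 higher and ORC1 and CCNE2 lower. Here again 0 members and 0% of genes passed the adjusted threshold. The 2 starvation comparisons have no samples in common.

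TRPML3 and vector were compared to ask what the channel did. In fed cells 2 members, ORC1 and RFC5, were higher with TRPML3 at an unadjusted p under 0.05 (5.26%, beside 2.21% of all genes). In 7 members the replicates did not overlap (18.4%, beside 7.09%), and all 7 were higher with TRPML3: ORC1, ORC6, PCNA, RFC5, FEN1, RRM1 and CCNE2. None passed the adjusted threshold, which 0.0111% of genes passed. In starved cells 1 member, UHRF1, was lower with TRPML3 at an unadjusted p under 0.05 (2.63%, beside 2.2%). CDC6 and E2F2 were the 2 members without overlap, both higher, beside 6.58% of all genes. There were 0 members and 0.00555% of genes at the adjusted threshold. Averaged over serum, MCM4 alone reached an unadjusted p under 0.05 (2.63%, beside 2.62%). No member kept the 6 TRPML3 libraries apart from the 6 vector libraries, which 0.155% of genes did, and 0 members passed the adjusted threshold beside 0.0111% of genes.

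The difference between the starvation response of TRPML3 cells and that of vector cells (the interaction) was tested for every gene. ORC1 and UHRF1 were the 2 members at an unadjusted p under 0.05 (5.26%, beside 2.07% of all genes), and 0 members and 0% of genes passed the adjusted threshold. The smallest adjusted p of any member in edgeR was 0.347 in the average starvation comparison, 0.834 for starvation in TRPML3 cells and rounded to 1 in the other 5 comparisons.

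**Figure D2:**
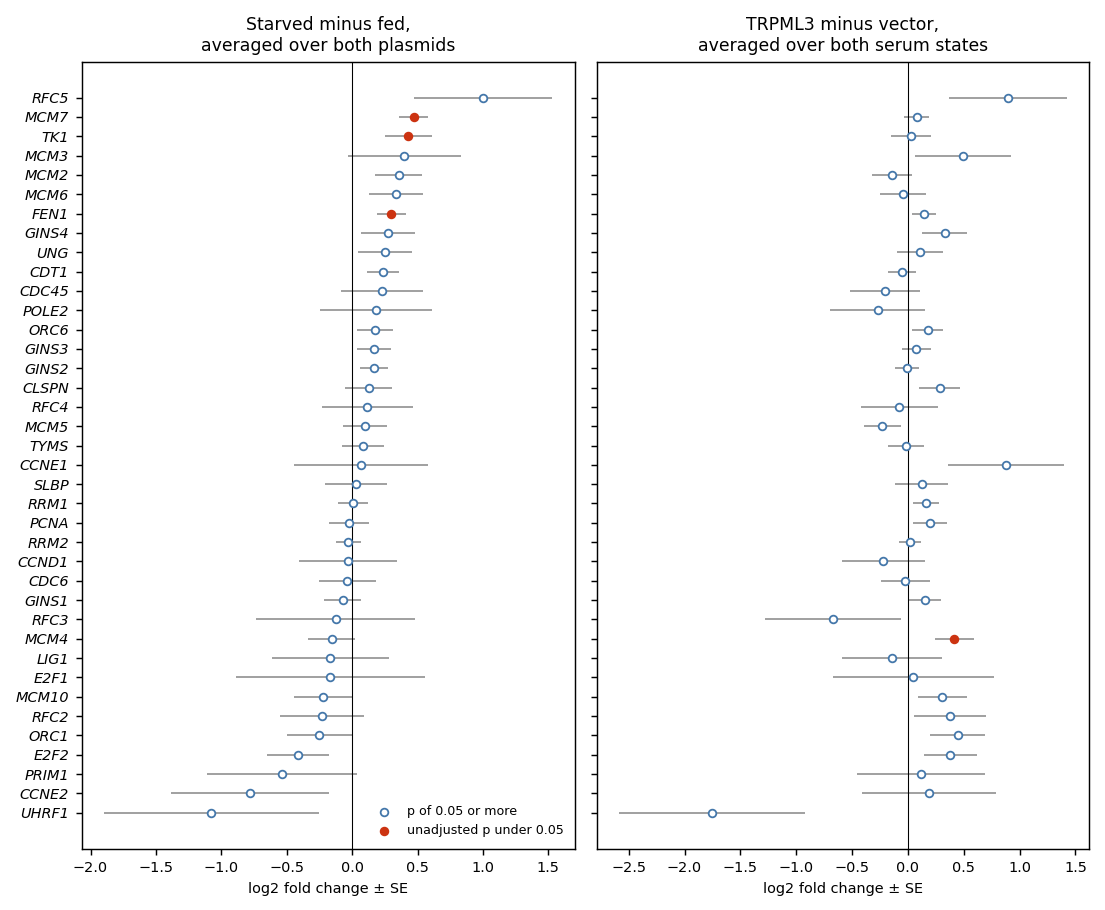
Log2 fold change ± SE of the 38 tested members, for starved minus fed (left, averaged over both plasmids) and TRPML3 minus vector (right, averaged over serum states), both fitted to 12 libraries. Filled points are the members at an unadjusted p under 0.05: MCM7, TK1 and FEN1 on the left and MCM4 on the right.

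Origin licensing uses ORC1 and ORC6 of the origin recognition complex, the loaders CDC6 and CDT1, and the helicase subunits MCM2 to MCM7. MCM7 (ENSG00000166508, chr7:100092728-100101940, minus strand, GRCh38) gave 345, 314 and 464 CPM in vector cells with serum, 505, 530.0 and 587 in vector cells without serum, 387, 412 and 437 in TRPML3 cells with serum and 560.1, 503 and 579.9 in TRPML3 cells without serum. All 6 starved libraries, at 503 to 587 CPM, lay above all 6 fed libraries, at 314 to 464 CPM. The average starvation effect was a log2 fold change of 0.47 ± 0.11 (SE, unadjusted p = 0.00136), a fold of 1.39, with a log2 fold change of 0.53 ± 0.15 (SE, unadjusted p = 0.00602) in vector cells and a log2 fold change of 0.41 ± 0.15 (SE, unadjusted p = 0.0230) in TRPML3 cells. In edgeR its adjusted p for the average was 0.347, and the DESeq2 Wald test, which called 1.81% of 15863 genes there, gave 0.033. Over 23 alternative settings the effect ran from 0.41 to 0.56 and the adjusted p from 0.0315 to 1. The 392 exonic bases that MCM7 shares with AP4M1 on the other strand are 8.94% of its exons, and AP4M1 had at most 6.84 CPM.

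Its partner MCM2 gave 139, 182 and 181 CPM in vector cells with serum, 180.4, 207 and 214 in vector cells without serum, 152, 84.3 and 189 in TRPML3 cells with serum and 193, 179 and 210.5 in TRPML3 cells without serum. Fed and starved libraries overlapped, because vector fed replicates 2 and 3 and TRPML3 fed replicate 3 reached the starved level (log2 fold change 0.36 ± 0.18 SE, unadjusted p = 0.0727 for average starvation). MCM4 gave 283, 343 and 444 CPM in vector cells with serum, 322, 332 and 291 in vector cells without serum, 377, 443 and 585 in TRPML3 cells with serum and 505, 283 and 494 in TRPML3 cells without serum. TRPML3 libraries tended to the high side, but TRPML3 starved replicate 2 was as low as the lowest vector library. Averaged over serum, TRPML3 minus vector was a log2 fold change of 0.42 ± 0.18 (SE, unadjusted p = 0.0401). MCM3 ranged from 31.3 to 268 CPM, MCM5 from 74.7 to 145 CPM and MCM6 from 169 to 361 CPM across the 12 libraries, and none of these 3 reached an unadjusted p of 0.05 in any comparison.

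ORC1 (ENSG00000085840, chr1:52372829-52404459, minus strand), the largest subunit of the complex, gave 12.4, 18.8 and 20.6 CPM in vector cells with serum, 13, 26.6 and 25.1 in vector cells without serum, 22.1, 45.1 and 37.6 in TRPML3 cells with serum and 19.3, 21.5 and 18.4 in TRPML3 cells without serum. All 3 TRPML3 fed libraries were above the 3 vector fed ones and above the 3 TRPML3 starved ones. The TRPML3 effect in fed cells was a log2 fold change of 1.02 ± 0.35 (SE, unadjusted p = 0.0156), a fold of 2.02. Starved minus fed was a log2 fold change of -0.82 ± 0.35 (SE, unadjusted p = 0.0402) in TRPML3 cells and a log2 fold change of 0.32 ± 0.35 (SE, unadjusted p = 0.382) in vector cells, and the interaction was a log2 fold change of -1.14 ± 0.50 (SE, unadjusted p = 0.0428). These estimates share the TRPML3 fed libraries, so they are not separate evidence. ORC6, a small subunit of the same complex, ranged from 88.8 to 164 CPM.

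CDC6, the loader that joins the complex in G1, gave 72.2, 154 and 216 CPM in vector cells with serum, 129, 133 and 115 in vector cells without serum, 109, 124 and 148 in TRPML3 cells with serum and 136, 142 and 147 in TRPML3 cells without serum. Its widest spread was among the vector fed replicates, from 72.2 to 216 CPM, and the 3 TRPML3 starved libraries lay just above the 3 vector starved ones (log2 fold change 0.17 ± 0.31 SE, unadjusted p = 0.601). CDT1, which brings the helicase to CDC6 and is destroyed in S phase, gave 71.5, 78.6 and 75.5 CPM in vector cells with serum, 69.1, 87 and 99.2 in vector cells without serum, 60.8, 74.8 and 73.5 in TRPML3 cells with serum and 81.6, 88.5 and 86 in TRPML3 cells without serum. In TRPML3 cells all 3 starved libraries exceeded all 3 fed ones, while in vector cells they overlapped (log2 fold change 0.24 ± 0.12 SE, unadjusted p = 0.0823 for average starvation).

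Origin firing needs MCM10, CDC45 and the 4 GINS subunits, which complete the active helicase. MCM10 gave 129, 159 and 194 CPM in vector cells with serum, 165, 159 and 105 in vector cells without serum, 190.4, 149.8 and 280.0 in TRPML3 cells with serum and 222, 180.0 and 109.7 in TRPML3 cells without serum. The highest value was in TRPML3 fed replicate 3 and the groups overlapped throughout. CDC45 gave 88.7, 78.8 and 50.2 CPM in vector cells with serum, 73.1, 74.7 and 101 in vector cells without serum, 53.2, 29.4 and 101 in TRPML3 cells with serum and 86.2, 40.7 and 94.8 in TRPML3 cells without serum, with the lowest values in TRPML3 replicate 2 of both serum states. GINS2 gave 87.9, 83.9 and 97 CPM in vector cells with serum, 103, 95.2 and 82.4 in vector cells without serum, 78.2, 82.6 and 87.4 in TRPML3 cells with serum and 104, 105 and 90.5 in TRPML3 cells without serum. It was among the steadiest members, with a coefficient of variation of 10.1% over 12 libraries, and in TRPML3 cells starved and fed replicates did not overlap (log2 fold change 0.27 ± 0.15 SE, unadjusted p = 0.105). GINS1 ranged from 152 to 231 CPM, GINS3 from 65.8 to 108 CPM and GINS4 from 48 to 118 CPM. None of the 6 reached an unadjusted p of 0.05 in any of the 7 comparisons.

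Strand synthesis is covered by primase and polymerase subunits, PCNA, the 4 small RFC subunits, the flap nuclease FEN1 and the ligase LIG1. FEN1 (ENSG00000168496, chr11:61792637-61797244, plus strand), which trims the flaps of Okazaki fragments, gave 130.3, 165 and 153 CPM in vector cells with serum, 201, 202 and 178 in vector cells without serum, 176, 174 and 171 in TRPML3 cells with serum and 187, 242 and 181 in TRPML3 cells without serum. All 6 starved libraries, at 178 to 242 CPM, were above the 6 fed libraries, at 130 to 176 CPM. The gap was narrow: the lowest starved library, vector starved replicate 3, had 178 CPM and the highest fed library, TRPML3 fed replicate 1, had 176 CPM. Average starvation gave a log2 fold change of 0.30 ± 0.11 (SE, unadjusted p = 0.0205), a fold of 1.23, with a log2 fold change of 0.37 ± 0.16 (SE, unadjusted p = 0.0363) in vector cells. FEN1 shares 166 exonic bases, 6.70% of its exons, with TMEM258 on the other strand.

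PCNA, the sliding clamp, gave 297, 395 and 298 CPM in vector cells with serum, 416, 292 and 410.2 in vector cells without serum, 416, 424 and 468 in TRPML3 cells with serum and 419.7, 262 and 436 in TRPML3 cells without serum. In fed cells the 3 TRPML3 libraries were above the 3 vector libraries (log2 fold change 0.40 ± 0.22 SE, unadjusted p = 0.0926), and in starved cells they overlapped (log2 fold change 0.00 ± 0.22 SE, unadjusted p = 0.997). RFC5 (ENSG00000111445, chr12:118013588-118033130, plus strand), a subunit of the clamp loader, gave 56.2, 3.86 and 7.83 CPM in vector cells with serum, 84.5, 99.96 and 101 in vector cells without serum, 69.7, 77.8 and 118 in TRPML3 cells with serum and 98.8, 85.7 and 68.6 in TRPML3 cells without serum. The 3 vector fed libraries were the lowest of the 12, and replicates 2 and 3 were under 8 CPM while the other 9 libraries outside that group lay between 68.6 and 118 CPM. The TRPML3 effect in fed cells was a log2 fold change of 1.97 ± 0.77 (SE, unadjusted p = 0.0268) and the starvation effect in vector cells was a log2 fold change of 2.07 ± 0.77 (SE, unadjusted p = 0.0214). Both use the vector fed group, so they rest on the same 3 libraries. Without vector fed replicate 1, which was the highest of them, the effects became 3.92 (adjusted p = 0.046 in edgeR, beside 0.0107% of genes called) and 4.03 (adjusted p = 0.0383, beside 0.00535%). Other alternatives took away the unadjusted calls. With only the libraries of each comparison the effects were 1.97 (unadjusted p = 0.0864 in edgeR) and 2.09 (unadjusted p = 0.0666). Without replicate 3 of all 4 groups they were 1.31 (unadjusted p = 0.248 in edgeR) and 1.63 (unadjusted p = 0.164). Over all 24 alternatives they ran from 1.31 to 4.05 and from 1.56 to 4.09, with adjusted p up to 1. WSB2, which shares 186 exonic bases with RFC5 on the other strand, stayed between 50.4 and 73.7 CPM.

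RFC3 ranged from 8.24 to 162 CPM. Its 2 low libraries were TRPML3 replicate 2, fed at 13.7 and starved at 8.24 CPM, and the other 10 lay between 91.4 and 162 CPM. RFC2 ranged from 26.1 to 108 CPM, RFC4 from 16.6 to 81.4 CPM and LIG1, which seals Okazaki fragments, from 18.1 to 86 CPM. LIG1 was highest in replicate 3 of every group. PRIM1, the catalytic primase subunit, ranged from 2.81 to 22.2 CPM and POLE2, a subunit of polymerase epsilon, from 2.37 to 19.7 CPM. PRIM1 shares 33 exonic bases, 1.35% of its exons, with NACA on the same strand, which had 293 to 979 CPM. It also shares 132 bases (5.42%) with HSD17B6 on the other strand. Whether the PRIM1 counts and their spread depend on these shared bases was not tested. POLA1, the catalytic subunit of polymerase alpha, had at most 0.27 CPM and was listed at 0 in 5 libraries, so it was not tested. Its partners in the same complex, POLA2 and PRIM2, had 15.7 to 40.6 and 29.3 to 70.0 CPM.

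**Figure D3:**
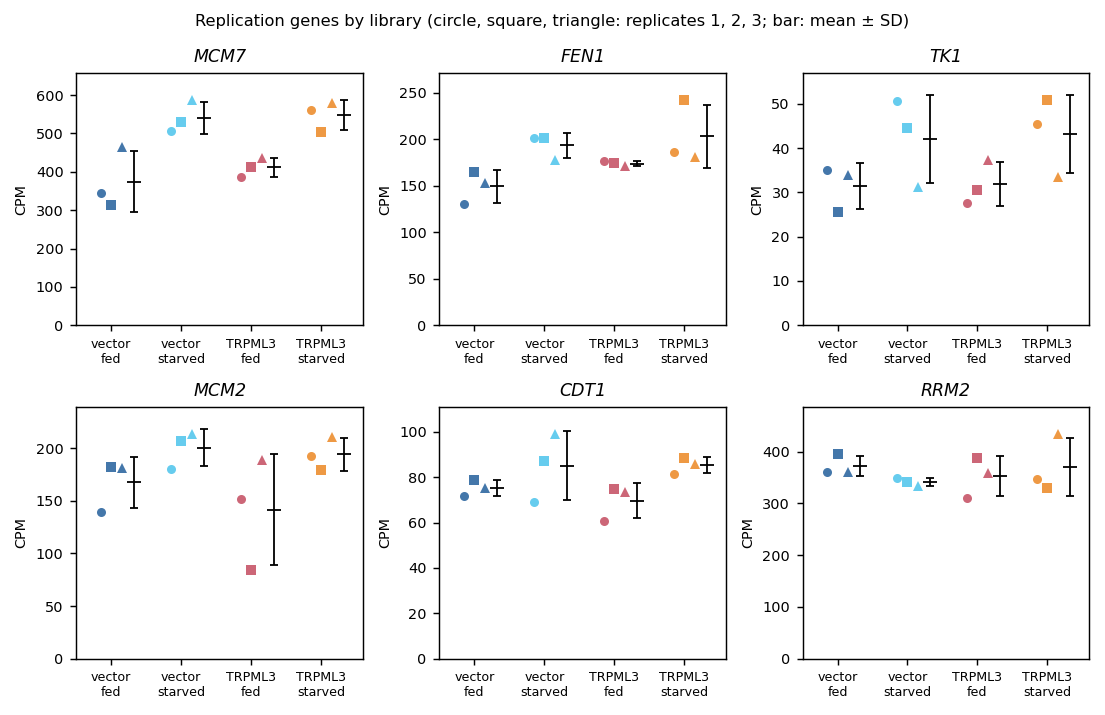
CPM by library for 6 members, with replicates 1, 2 and 3 as circle, square and triangle and the group mean ± SD (n = 3) as a bar; every axis starts at 0. Starved libraries of MCM7 and FEN1 lie above all fed libraries, those of TK1, MCM2 and CDT1 overlap with fed ones, and so do those of RRM2 when both plasmids are read together.

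Nucleotide supply depends on ribonucleotide reductase (RRM1 and RRM2), thymidylate synthase (TYMS) and thymidine kinase (TK1). RRM2, the regulated small subunit, gave 362, 396 and 361 CPM in vector cells with serum, 348, 342 and 333 in vector cells without serum, 311, 388 and 359 in TRPML3 cells with serum and 347, 329.8 and 435 in TRPML3 cells without serum. Its coefficient of variation was 9.31%, the smallest of the members tested, and average starvation gave a log2 fold change of -0.03 ± 0.10 (SE, unadjusted p = 0.781). In vector cells the 3 starved libraries lay below the 3 fed ones, and in TRPML3 cells they overlapped. RRM1, the large subunit, ranged from 321 to 539 CPM. In fed cells its 3 TRPML3 libraries were not below any vector library, but the lowest of them and the highest vector library both had 362 CPM. TYMS gave 85.4, 84.6 and 123 CPM in vector cells with serum, 93.2, 84.9 and 119 in vector cells without serum, 84.9, 78 and 114 in TRPML3 cells with serum and 106, 89.5 and 110.4 in TRPML3 cells without serum. Replicate 3 was the highest of each group. TYMS shares 967 exonic bases (39.1% of its exons) with ENOSF1 on the other strand, which had 20.5 to 49.2 CPM, and whether the counts use strand is not given in the sources used here. TK1 (ENSG00000167900, chr17:78174075-78187233, minus strand), the salvage enzyme for thymidine, gave 35, 25.6 and 34 CPM in vector cells with serum, 50.6, 44.5 and 31.1 in vector cells without serum, 27.6, 30.6 and 37.3 in TRPML3 cells with serum and 45.4, 50.8 and 33.5 in TRPML3 cells without serum. Replicates 1 and 2 of both starved groups lay between 44.5 and 50.8 CPM, above every fed library, and replicate 3 of both starved groups lay within the fed range. Average starvation was a log2 fold change of 0.43 ± 0.18 (SE, unadjusted p = 0.0384), a fold of 1.35.

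Cyclin D1 (CCND1) carries the serum signal to RB, cyclin E (CCNE1, CCNE2) drives S phase entry, and E2F1 and E2F2 are the activating E2F factors. CCND1 gave 14.6, 16.8 and 16.5 CPM in vector cells with serum, 15, 13.2 and 17.5 in vector cells without serum, 3.02, 18.4 and 18.6 in TRPML3 cells with serum and 11.6, 10.6 and 18.1 in TRPML3 cells without serum. Average starvation was a log2 fold change of -0.03 ± 0.38 (SE, unadjusted p = 0.938), and the lowest value was that of TRPML3 fed replicate 1. LTO1, which shares 10.3% of CCND1's exons on the other strand, had 27.1 to 48.7 CPM. CCNE1 gave 10.6, 11.4 and 6.05 CPM in vector cells with serum, 4.92, 13.9 and 6.91 in vector cells without serum, 11, 2.40 and 31.7 in TRPML3 cells with serum and 24.5, 16.1 and 13.5 in TRPML3 cells without serum, and its range within the TRPML3 fed group was as wide as that over all 12 libraries. CCNE2 gave 20.9, 21.1 and 26.1 CPM in vector cells with serum, 20.3, 36 and 1.13 in vector cells without serum, 40.3, 27.5 and 44.8 in TRPML3 cells with serum and 25.4, 13.2 and 6.69 in TRPML3 cells without serum. All 3 TRPML3 fed libraries were above the 3 TRPML3 starved ones and above the 3 vector fed ones, yet the spread left starvation in TRPML3 cells at a log2 fold change of -1.31 ± 0.86 (SE, unadjusted p = 0.156). CCNE2 shares 37.0% of its exons with INTS8 on the other strand, which had 57.9 to 161 CPM.

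E2F1 gave 21.3, 39.7 and 30.4 CPM in vector cells with serum, 13.7, 41.7 and 7.97 in vector cells without serum, 20.2, 13.6 and 39.6 in TRPML3 cells with serum and 47.4, 0.779 and 35.8 in TRPML3 cells without serum. Replicates differed by up to 37.5-fold within a group (0.5 CPM added to each value), and no comparison of E2F1 was past an unadjusted p of 0.05. E2F2 gave 36.9, 33.6 and 49.4 CPM in vector cells with serum, 13.2, 27.6 and 29.6 in vector cells without serum, 34.4, 33 and 54.4 in TRPML3 cells with serum and 31.1, 40.8 and 45.3 in TRPML3 cells without serum. The 3 vector starved libraries were the lowest of the 12, below all 3 vector fed and all 3 TRPML3 starved ones. Starvation in vector cells was a log2 fold change of -0.77 ± 0.34 (SE, unadjusted p = 0.0451), a fold of 0.587, and TRPML3 minus vector in starved cells was a log2 fold change of 0.74 ± 0.34 (SE, unadjusted p = 0.0534).

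The remaining members are SLBP, which binds histone messenger RNA, CLSPN, the claspin adaptor of the replication checkpoint, UNG, the uracil-DNA glycosylase, and UHRF1, which recruits maintenance DNA methylation to new DNA. SLBP gave 49.9, 75.3 and 83 CPM in vector cells with serum, 99.2, 92.8 and 40.1 in vector cells without serum, 67.9, 85.1 and 95 in TRPML3 cells with serum and 86.3, 84.2 and 60.2 in TRPML3 cells without serum, with its lowest value in vector starved replicate 3. CLSPN gave 154, 136 and 180.3 CPM in vector cells with serum, 149, 231 and 146 in vector cells without serum, 201, 129.7 and 256 in TRPML3 cells with serum and 217, 188 and 221 in TRPML3 cells without serum, and TRPML3 fed replicate 3 was the highest of the 12. UNG gave 104, 123 and 229 CPM in vector cells with serum, 189, 185 and 161 in vector cells without serum, 140.2, 129.9 and 213 in TRPML3 cells with serum and 217, 202 and 166 in TRPML3 cells without serum. No comparison of these 3 reached an unadjusted p of 0.05 over the 12 libraries. For UNG, replicates 1 and 2 of both starved groups were above replicates 1 and 2 of the fed groups, and replicate 3 went the other way in both plasmids.

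UHRF1 (ENSG00000276043, chr19:4903080-4962154, plus strand) gave 56.5, 58.6 and 5.57 CPM in vector cells with serum, 86.5, 135 and 3.98 in vector cells without serum, 70.8, 64.6 and 5.35 in TRPML3 cells with serum and 6.80, 5.15 and 5.04 in TRPML3 cells without serum. It was under 7 CPM in replicate 3 of every group and in all 3 TRPML3 starved libraries, and between 56.5 and 135 CPM in the other 6. TRPML3 in starved cells gave a log2 fold change of -3.73 ± 1.28 (SE, unadjusted p = 0.0145), starvation in TRPML3 cells a log2 fold change of -3.05 ± 1.24 (SE, unadjusted p = 0.0324) and the interaction a log2 fold change of -3.95 ± 1.68 (SE, unadjusted p = 0.0392). With the replicate block these became -2.40 (unadjusted p = 0.0326), -1.89 (unadjusted p = 0.0663) and -2.57 (unadjusted p = 0.0697). With limma-trend on the authors' normalized values they became -2.68 (unadjusted p = 0.0879), -2.39 (unadjusted p = 0.124) and -2.84 (unadjusted p = 0.189). Its genomic neighbours PLIN3 and KDM4B stayed between 16.3 and 23.6 and between 21.8 and 41.4 CPM. Replicate 3 also had the largest mitochondrial share, 4.83 to 5.70%, but TRPML3 starved replicates 1 and 2, which were low too, had 2.81 and 1.05%. The part of the mitochondrial share in the result was not tested.

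Without replicate 3 of all 4 groups, the average starvation comparison of the other 8 libraries passed the adjusted threshold in edgeR for 4 members, beside 4.49% of 18052 genes. MCM7 was 0.54 higher on the log2 scale (adjusted p = 0.0315), UNG 0.69 higher (0.0305) and GINS4 0.67 higher (0.0439). UHRF1 came out 1.27 lower (log2 fold change -1.27, adjusted p = 0.0309) as an average of vector cells, where both starved libraries were above both fed ones, and TRPML3 cells, where both were below. FEN1 and TK1 gave 0.38 (adjusted p = 0.155) and 0.70 (adjusted p = 0.0636). Without replicate 1 or without replicate 2 no member passed.

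Several members differed widely between replicates of a group. A range of 5-fold or more within a group (0.5 CPM added to each value) was found for 10 of 38 members (26.3%), MCM3, PRIM1, POLE2, RFC3, RFC5, CCND1, CCNE1, CCNE2, E2F1 and UHRF1, beside 16.9% of the 9156 genes with a mean of at least 10 CPM. At the other end, RRM2, GINS2, GINS3, CDT1 and RRM1 had coefficients of variation of 9.31 to 14.7%. A like pattern was seen in RPL36AL, a ribosomal protein gene outside the set, which had 3.77 to 9.15 CPM in 4 libraries and 107 to 180 CPM in the other 8. How reads were assigned to genes is not given in the sources used here. Whether the very low values of UHRF1, RFC5, RFC3, E2F1 and CCNE2 in some libraries, and that of POLA1 in all of them, depend on that counting was not tested.

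**Figure D4:**
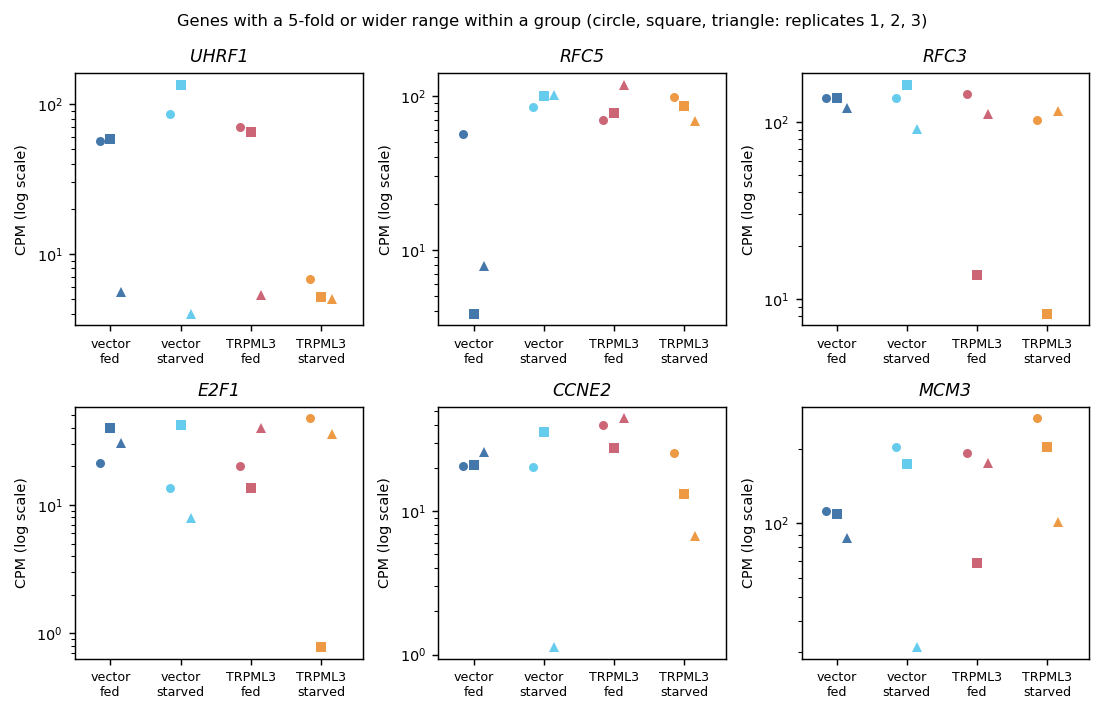
CPM by library on log axes for 6 members with a range of 5-fold or more within a group, replicates 1, 2 and 3 as circle, square and triangle. UHRF1 is low in all TRPML3 starved libraries and in replicate 3 elsewhere, RFC5 in vector fed replicates 2 and 3, and RFC3 in TRPML3 replicate 2.

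By library, TRPML3 fed replicate 3 had the highest value of the 12 in 14 of 38 members, and 32 of 38 were above their own mean there. Its member counts summed to 6048 CPM, beside 4211 in vector fed replicate 1, the lowest. The same library held 3.70% MCOLN3 counts, against 0.648 and 0.505% in the other TRPML3 fed libraries, while TRPML3 starved replicate 2, with 5.52%, summed to 4865 CPM. A part of the MCOLN3 level in the members' sum was not tested. How many of all tested genes were highest or above their own mean in TRPML3 fed replicate 3 was not counted.

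The other genes of these pathways were read from 4 lists that hold no member. Of 18 further origin licensing and firing genes, 0 reached an unadjusted p of 0.05 for average starvation, and 1 did for average TRPML3, DONSON, a helicase assembly factor that was lower (log2 fold change -1.24 ± 0.45 SE, unadjusted p = 0.0190). Of 24 polymerase and fork genes, 1 was higher for average starvation, POLE3 (log2 fold change 0.31 ± 0.11 SE, unadjusted p = 0.0193), and 1 lower, POLE (log2 fold change -0.44 ± 0.17 SE, unadjusted p = 0.0240), both of polymerase epsilon. Of 15 nucleotide and chromatin assembly genes, CHAF1A, of the CAF-1 histone chaperone, was higher (log2 fold change 0.69 ± 0.22 SE, unadjusted p = 0.0103) and DCK, deoxycytidine kinase, lower (log2 fold change -0.52 ± 0.19 SE, unadjusted p = 0.0185). Of 35 further G1/S control genes, MYBL2, a cell cycle transcription factor, was higher (log2 fold change 0.71 ± 0.31 SE, unadjusted p = 0.0429) and CCND2, cyclin D2, lower (log2 fold change -0.64 ± 0.22 SE, unadjusted p = 0.0165). None of these genes passed the adjusted threshold with all 12 libraries in edgeR, and in no list was the share at an unadjusted p under 0.05 for average starvation above 13.3%, beside 9.45% of all genes. Of 24 G2/M genes read for comparison, 6 (25%) were higher and 0 lower, among them CDC20 (log2 fold change 0.52 ± 0.10 SE, unadjusted p = 0.000450), BIRC5 (log2 fold change 0.39 ± 0.09 SE, unadjusted p = 0.00165) and CCNB1 (log2 fold change 0.52 ± 0.15 SE, unadjusted p = 0.00624). CDC20 activates the anaphase-promoting complex, BIRC5 is survivin and CCNB1 is cyclin B1. The median of that list was 0.05, beside 0.08 in the members.

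Without replicate 3 of all 4 groups, more list genes passed the adjusted threshold for average starvation in edgeR, beside 4.49% of all genes. They were POLE3 (log2 fold change 0.44, adjusted p = 0.0424) as 1 of 24 polymerase and fork genes, and CHAF1A (1.05, adjusted p = 0.0315), DTYMK (1.46, adjusted p = 0.0259) and CTPS1 (0.82, adjusted p = 0.046) as 3 of 15 nucleotide and chromatin assembly genes. Of 35 G1/S control genes, E2F4 (0.68, adjusted p = 0.0364) and FZR1 (0.87, adjusted p = 0.047) were higher and CCND2 (-0.81, adjusted p = 0.0414) lower. Of 24 G2/M genes, CCNB1 (0.75, adjusted p = 0.0292) and CDC20 (0.56, adjusted p = 0.0496) were higher, and 0 of 18 origin genes passed. DTYMK, CTPS1, E2F4 and FZR1 are named here after their values were seen. Without replicate 1 or without replicate 2, the adjusted p of each of these genes was 1 when rounded.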

How the data were processed

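Raw counts per gene for 12 libraries in 4 groups of 3 were deposited by the authors, and groups and replicate numbers came from the sample titles. Per the submitters' processing notes, FastQC, fastp, HISAT2, StringTie and DESeq2 were used with GRCh38. Their roles, the gene annotation and whether strand was used are not given in the sources used here. The authors' other table gives a normalized signal, the deposited raw count divided by 1 factor per library, and was used only in an alternative test. Counts were tested with edgeR 4.0.16 in R 4.3.3 (TMM, filterByExpr by group, robust quasi-likelihood fit to 12 libraries, 8 residual degrees of freedom) and adjusted over 18030 genes by Benjamini-Hochberg at 0.05. The common biological coefficient of variation was 0.527. Gene length and location came from GENCODE 29, promoters from RefSeq. The script was tested on simulated data, with a pass condition only at a biological coefficient of variation well below that of these data. That test therefore does not show how many true changes are found at the spread seen here. Library totals of 33101540 to 43700547 counts make counting error small beside replicate spread.

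The members and gene lists were chosen with earlier results of these data known. The text names MCOLN3, all 39 members, a set given library by library (22 members fixed by name, and MCM4 and RFC5 as members at an unadjusted p under 0.05), and up to 3 genes per list and direction at that p for the average effects. Replicates are labelled biological, but whether they were transfected separately is not given in the sources used here. No 2 libraries agreed within counting noise (chi-square per degree of freedom at least 153 in 66 pairs). Deviations of same-numbered vector and TRPML3 libraries correlated at r of 0.112, 0.145 and 0.326 in fed cells. In starved cells r was 0.131, 0.0949 and 0.316, and between fed and starved libraries -0.0757 to 0.00748. Libraries of different numbers were not correlated for comparison, so these values do not settle whether the libraries are paired. The main fit has no term for the replicate number, and the replicate block below is the alternative that has it. Alternatives were other size factors, the DESeq2 1.42.0 Wald test, other filters, limma 3.58.1 on log2 of the deposited signal, the replicate block, the libraries of a comparison alone, an unadjusted p and each replicate left out.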

Additional observations from a re-analysis of the deposited data

How the results depend on the processing

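The count of members past the adjusted threshold was 0 in each of the 7 comparisons. With the replicate block it was 0 in all 7 as well. At an unadjusted p of 0.05 the block ended edgeR's call of TK1 for average starvation (0.42, unadjusted p = 0.0617) and those of UHRF1 for starvation of TRPML3 cells and the interaction. At an unadjusted p under 0.05 the counts became 2 (TRPML3 in fed cells), 1 (TRPML3 in starved cells), 4 (starvation of vector cells), 3 (starvation of TRPML3 cells), 2 (interaction), 3 (average starvation) and 1 (average TRPML3). The DESeq2 Wald test called 1 member, MCM7, for average starvation. With single libraries or 1 replicate number left out, the counts ran from 0 to 4 for average starvation (4 without replicate 3), from 0 to 1 for TRPML3 in fed cells and for starvation in vector cells (1, RFC5, without vector fed replicate 1), and stayed at 0 in the other 4. The cause was not tested. Over the same omissions, the members' median log2 fold change ran from -0.02 to 0.21 for average starvation, 0.01 to 0.17 for average TRPML3, -0.13 to 0.25 for TRPML3 in fed cells, 0.02 to 0.12 for TRPML3 in starved cells, -0.017 to 0.17 for starvation of vector cells, -0.026 to 0.30 for starvation of TRPML3 cells and -0.11 to 0.22 for the interaction. Scaling by library totals alone, which moved the median of all genes by -0.10 for TRPML3 in starved cells and by less in the other 6, gave a members' median of -0.06 for TRPML3 in starved cells and -0.00042 for average TRPML3, both positive with TMM. Under that scaling FEN1 and TK1 for average starvation (unadjusted p = 0.0657 and 0.06 in edgeR) and MCM4 for average TRPML3 (unadjusted p = 0.0708) missed 0.05. So did FEN1 for starvation in vector cells (unadjusted p = 0.0696). With only the libraries of the comparison, RFC5, FEN1 and E2F2 missed it for starvation in vector cells (unadjusted p = 0.0666, 0.0538 and 0.0791 in edgeR). RFC5 also missed it there for TRPML3 in fed cells (unadjusted p = 0.0864). With limma-trend the median was -0.02 for the interaction. The members' median level varied with an SD of 0.16 between replicates. The effects of named members at an unadjusted p under 0.05 kept their direction under every alternative run. Depth was not varied, and POLA1 is the 1 member whose counts were too low to test.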

Other observations

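The reading of genes that respond early to serum depended on replicate 3. Of 15 such genes, with all 12 libraries, 1 was higher and 1 lower in starved cells at an unadjusted p under 0.05 for the average of both plasmids. That is 13.3%, beside 9.45% of all genes, and 0 passed the adjusted threshold in edgeR. MYC, a growth-related transcription factor induced by serum, had 68.3 to 127 CPM in the 6 fed libraries and 139 to 167 CPM in the 6 starved libraries. It was the 1 gene of the 15 (6.67%) whose fed and starved libraries did not overlap, beside 1.25% of all genes. DUSP6, a phosphatase induced by ERK signalling that acts on ERK, was lower by a log2 fold change of -2.13 ± 0.54 SE (unadjusted p = 0.0023). CCND1, a member of the replication set that also answers to serum, was at -0.03 ± 0.38 SE in the same comparison. Without replicate 3 of all 4 groups, 13 of the 15 genes were lower in starved cells, and 3 of them passed the adjusted threshold in edgeR, beside 4.49% of all genes. These were JUN (log2 fold change -0.84, adjusted p = 0.0259), DUSP1 (-1.13, adjusted p = 0.0259) and DUSP6 (-2.97, adjusted p = 0.0234). JUN and DUSP1 are named after their values were seen. CCN2 is counted among the 13 lower genes without replicate 3, but with an SE of 6341 its direction there was not resolved. Among the 13, JUNB (-0.0016 ± 0.206 SE), EGR1 (-0.011 ± 0.227 SE) and FOS (-0.21 ± 0.25 SE) were also within their SE of no change. The share of all genes that were lower in that fit was not counted. Without replicate 1, where CCN2 had no value, 0 of 14 passed, and without replicate 2, 0 of 15 passed.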
